A study of Homo sapiens with 2 samples.

Results

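Genes of human chromosome 8 were followed from one end of the chromosome to the other in T47D cells that carried either a control hairpin or one against RON. The deposited tables hold 1355 transcripts on chromosome 8. Transcript values were summed per gene, 5 genes were left out by rule, and 892 genes remained. Members were chosen by position and by level, as the genes that reached 1 FPKM (fragments scaled by transcript length and library total) in either library. In all, 415 of the 892 genes (46.5%) did so, out of 12484 genes of the whole series that reached the same level. A gene was placed by its start in hg19, in a short-arm range below 40 Mb (117 genes), a central range from 40 to 100 Mb that holds the centromere (139 genes), or a distal long-arm range above 100 Mb (159 genes). These bounds were set with earlier results of these data known, and the ratios on either side of them are given as a description.

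T47D is an established luminal breast cancer line that carries estrogen and progesterone receptors. Cells of the control group, shNT, received a non-targeting hairpin, and cells of the other group, shRON, received a hairpin that targets RON, a receptor tyrosine kinase encoded by MST1R. Both groups were transduced and selected with puromycin at 5 ug/mL, were kept at 1 ug/mL, and grew in high-glucose DMEM with 10% serum. Each group is 1 library from the line, so a difference has no replicate check, no p-value is given, and ratios compare these libraries. The name of the control's table describes wild-type cells, whereas its label gives the non-targeting hairpin, and the label was followed.

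Chromosome 8 is often unbalanced in breast tumours. Its short arm is frequently lost, a block in bands 8p11 to p12 is amplified in some luminal tumours, and the long arm is frequently gained. RNA levels of many genes tend to follow the number of gene copies, and neighbours can also share regulation. The files used here hold RNA values and no measure of DNA.

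From the deposited coverage, about 11.9M fragments were estimated behind the shNT values and 11.5M behind shRON (M, 1e6 fragments). MST1R, the target of the hairpin, stood at 12.1 FPKM in shNT against 9.10 FPKM in shRON (log2 ratio -0.38). The luminal markers ESR1 (36.7 and 23.7 FPKM), PGR (76.7 and 35.1 FPKM) and GATA3 (223 and 269 FPKM) were present in shNT and shRON. The immune markers PTPRC, CD3E, LYZ and TYROBP and the endothelial markers PECAM1 and VWF were listed at 0 in both. Of the fibroblast markers, COL1A1 stood at 3.95 and 4.27 FPKM, COL3A1 at 0.0103 and 1.53 FPKM, and COL1A2 and DCN were under 0.03 FPKM in both.

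The distal long-arm genes were higher in shRON almost throughout. Ratios are given as log2 of FPKM + 1 in shRON over shNT, so that a positive value is a higher level in shRON. The median was 0.51 (quartiles 0.30 and 0.72, 159 genes), and 150 genes (94.3%) lay above 0, where 53.9% of all genes did. Of these genes, 64 (40.3%) were at least 1.5-fold higher, against 9.95% of all genes, and 2 (1.26%) were at least 1.5-fold lower, against 8.84% of all genes. At 2-fold, 12 were higher (all genes, 3.32%) and 0 were lower (all genes, 2.17%). Of the 159 genes, 8 passed the level limit only through shRON and 1 only through shNT, and such genes had to differ. With a pseudocount of 5 FPKM in place of 1, the 64 became 35. In such bulk RNA a difference in the level per cell and a difference in the share of cells that carry it cannot be told apart.

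In the central range the median was 0.03 (quartiles -0.20 and 0.29, 139 genes). There 77 genes (55.4%) lay above 0, 13 (9.35%) were 1.5-fold higher and 12 (8.63%) were 1.5-fold lower, shares near those of all genes. The short-arm range had a median of 0.06 (quartiles -0.40 and 0.34, 117 genes), with 13 genes (11.1%) 1.5-fold higher and 18 (15.4%) 1.5-fold lower. Its lower genes were mostly weak: the 18 became 4 when a mean of 5 FPKM was required and also 4 with a pseudocount of 5 FPKM. Over the whole chromosome the median was 0.26, with 289 of 415 genes above 0.

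**Figure D1:**
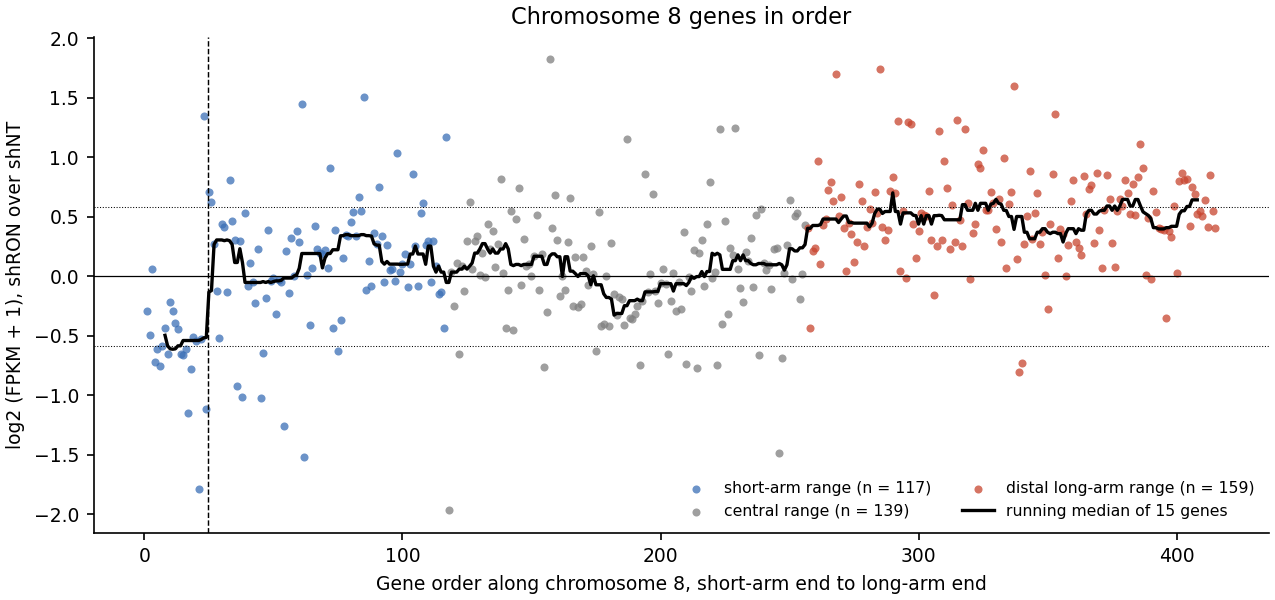
Each point is 1 of the 415 chromosome 8 genes, placed by its order along the chromosome (x axis) at its log2 ratio of FPKM + 1 in shRON over shNT (y axis). The black line is the running median of 15 genes, dotted lines mark 1.5-fold and the dashed line marks the 16 Mb bound. The running median reaches -0.61 at the short-arm end and 0.70 in the distal long-arm range.

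The plot of genes in order shows that the short-arm range was not uniform. All but 2 of the 24 genes that start below 16 Mb were lower in shRON, and the bound at 16 Mb was set after these values were seen. Their median was -0.56 (quartiles -0.67 and -0.42), 11 (45.8%) were at least 1.5-fold lower and 1 was 1.5-fold higher. These sizes depend on how weak genes are treated: with a pseudocount of 0.1 FPKM the median was -0.79 and 19 genes were lower, and with 5 FPKM it was -0.27 and 3 were lower. It was -1.12 for the 3 genes with a mean of 5 FPKM or more, all 3 of them lower, and -0.24 for 49 genes with no level limit. The other 93 genes of the range had a median of 0.19, with 60 (64.5%) above 0 (all genes, 53.9%). Of the 93, 12 (12.9%) were 1.5-fold higher and 7 (7.53%) were 1.5-fold lower, against 9.95% and 8.84% of all genes.

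The running median of 15 consecutive genes was lowest, at -0.61, over the stretch from ERICH1 to PINX1. Between 20 and 95 Mb it stayed between -0.33 and 0.35. It was highest, at 0.70, over the stretch that begins at ENY2, and past the first 3 Mb of the distal long-arm range its lowest value was 0.29, centred on TIGD5. In steps of 5 Mb, the 10 medians beyond 100 Mb lay between 0.40 and 0.73, although 1 of those steps held 4 genes and another held 1. The step from 95 to 100 Mb had a median of 0.10 (27 genes) and the next one 0.42 (20 genes). At the other end, the first 3 steps stood at -0.58 (7 genes), -0.53 (10 genes) and -0.54 (6 genes), and the step from 15 to 20 Mb at 0.34 (10 genes). The 5 steps from 65 to 90 Mb had medians slightly below 0, from -0.25 to -0.06.

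Genes beside the bounds were as follows. TUSC3, a subunit of the oligosaccharyltransferase that adds N-linked sugars, is the last gene before 16 Mb and stood at 55.5 FPKM in shNT against 25.1 FPKM in shRON. CNOT7, a deadenylase subunit of the CCR4-NOT complex and the first gene after it, stood at 32.9 and 54.4 FPKM. VPS37A, an ESCRT-I subunit that sorts endosomal cargo, followed with 5.74 and 9.37 FPKM. The ratio was -1.12 at TUSC3, 0.71 at CNOT7 and 0.62 at VPS37A, and 1.34 at SGCZ, the weak gene before TUSC3.

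At 100 Mb the last gene but one before the bound was STK3, a Hippo pathway kinase, at 9.65 and 9.78 FPKM in shNT and shRON. OSR2, a zinc finger transcription factor that starts just before the bound, stood at 2.87 and 4.21 FPKM, and VPS13B, a lipid transfer protein of the Golgi just after it, at 4.16 and 5.82 FPKM. The next gene, COX6C, a subunit of cytochrome c oxidase, was lower in shRON, with 249 and 183 FPKM. At 40 Mb the nearest genes were IDO1, which breaks down tryptophan, at 0.0810 and 1.43 FPKM, and ZMAT4 at 2.91 FPKM in shNT with a listed value of 0 for shRON. Both were weak, and each passed the level limit through 1 library only.

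The short-arm end holds few strongly expressed genes. CTSB, which encodes the lysosomal protease cathepsin B (hg19 chromosome 8, 11700033 to 11725646, minus strand), stood at 83.2 FPKM in shNT against 23.4 FPKM in shRON. Its log2 ratio of -1.78 was the lowest of the short-arm range, and the plain FPKM ratio was 0.282 (approximate 95% interval 0.265 to 0.300, counting error only). TUSC3 (15397730 to 15621995, plus strand) had an FPKM ratio of 0.451 (0.406 to 0.501). MSRA, a methionine sulfoxide reductase that repairs oxidised proteins, stood at 5.38 and 1.88 FPKM. CTSB, TUSC3 and LOC100507448 were the only genes of this end with a mean of at least 5 FPKM over both libraries.

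Ratios of the weaker genes of the short-arm end ran from -1.15 at MSRA to 1.34 at SGCZ. PINX1, a telomerase inhibitor, stood at 4.14 FPKM in shNT against 1.99 FPKM in shRON. CLN8, an endoplasmic reticulum protein mutated in a neuronal storage disease, stood at 4.11 and 2.03 FPKM. TNKS, the poly-ADP-ribose polymerase tankyrase, stood at 4.84 and 2.82 FPKM. The log2 ratios of these 3 genes were -0.78, -0.75 and -0.61.

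MCPH1, a chromosome condensation and DNA damage protein, stood at 4.24 FPKM in shNT against 2.34 FPKM in shRON. PPP1R3B, which brings a phosphatase to glycogen, stood at 4.75 and 2.64 FPKM. ERI1, an exonuclease that trims histone mRNA and small RNAs, stood at 4.29 and 2.37 FPKM. AGPAT5, an acyltransferase of phospholipid synthesis, was among the least lowered, with 4.67 and 3.89 FPKM and a ratio of -0.22.

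The exceptions below 16 Mb were C8orf42, with a ratio of 0.06, and SGCZ, a sarcoglycan gene with a listed value of 0 for shNT and of 1.54 FPKM for shRON. Of the 24 genes, 21 were in the lowest level group of all genes (mean under 5.13 FPKM), and 12 had at least 100 estimated fragments in both libraries. LOC100507448 (14.4 and 9.09 FPKM) overlaps CLN8, and reads in the overlap cannot be told apart, since the strand setting of the kit is not given. Among genes with several transcripts, 13 of 13 transcripts below 16 Mb that reached 1 FPKM had ratios below 0. They come from 7 genes and are parts of the gene values already given, so they are not separate instances. Such transcripts lay below 0 in 22 of 70 cases from 16 to 40 Mb and in 55 of 119 in the central range.

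**Figure D2:**
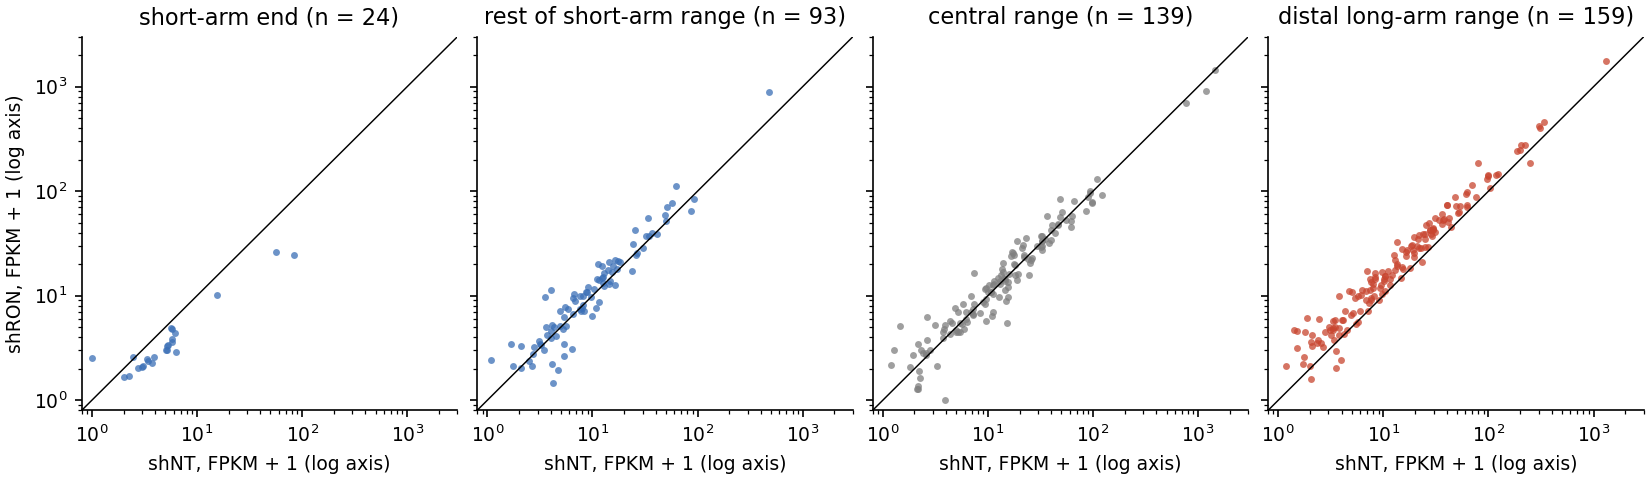
Each point is 1 gene at its level in shNT (x axis) and shRON (y axis), both as FPKM + 1 on log axes, for the short-arm end (24 genes below 16 Mb), the rest of the short-arm range (93), the central range (139) and the distal long-arm range (159). The line marks equal levels, with 22 of the 24 short-arm end genes under it and 150 of the 159 distal long-arm genes over it.

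In the rest of the short-arm range, between 16 and 40 Mb, single genes lay far from 0 in both directions. The shares past 1.5-fold there, given above, were not far from those of all genes. Among the highest at a mean of 5 FPKM or more was DUSP4, a nuclear phosphatase that inactivates ERK and other MAP kinases, at 3.02 FPKM in shNT against 10.4 FPKM in shRON. CLU encodes the secreted chaperone clusterin and was the most abundant gene of the range, at 476 and 895 FPKM, an FPKM ratio of 1.88 (1.85 to 1.92). It carried most of the difference in the summed level between 16 and 40 Mb, from 1748 to 2358 FPKM. INTS10, an Integrator subunit, stood at 10.3 and 18.9 FPKM, and GSR, glutathione reductase, at 24.5 and 41.8 FPKM.

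Lower in shRON were PDLIM2, a PDZ and LIM domain protein that targets transcription factors for degradation, at 8.91 and 5.33 FPKM, and PCM1, a scaffold of centriolar satellites, at 9.86 and 6.59 FPKM. STC1, a secreted glycoprotein hormone, stood at 3.21 and 0.469 FPKM and passed the level limit through shNT only. PDLIM2, with a ratio of -0.65, and LOC100507448, with -0.61, were within 1.5-fold when the pseudocount was 5 FPKM, as was LOC100507448 (-0.56) with its most abundant transcript only. TMEM66, a regulator of store-operated calcium entry, was abundant and nearly level at 90.7 and 83.6 FPKM.

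The genes of the 8p11 to p12 amplicon, which lie at the centromeric end of that range, showed neither shift. Of 22 listed, 18 reached 1 FPKM, with a median of 0.10. Of these, 2 were 1.5-fold higher (all genes, 9.95%) and 0 were 1.5-fold lower (all genes, 8.84%). EIF4EBP1, which restrains cap-dependent translation, stood at 61.0 FPKM in shNT against 111 FPKM in shRON. DDHD2, a lipase, stood at 11.4 and 18.0 FPKM. ZNF703, a luminal transcriptional repressor and leading candidate of the amplicon, was level at 49.4 and 50.5 FPKM. FGFR1, a fibroblast growth factor receptor, stood at 10.5 and 13.1 FPKM, and ADAM9, a cell surface metalloprotease, had the lowest ratio of the list (-0.44) with 86.4 and 63.5 FPKM.

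Candidate tumour suppressors of the short arm lay on both sides of 0. Of 14 listed, 8 reached the level limit, with a median of -0.07. Of these, 1 was 1.5-fold higher (all genes, 9.95%) and 1 was 1.5-fold lower (all genes, 8.84%). The lower one was TUSC3, described above. BIN3, a membrane-shaping protein, stood at 7.17 and 7.08 FPKM. The TRAIL receptors, which pass on or block an extracellular death signal, lie side by side near 23 Mb. The signalling receptor TNFRSF10B stood at 11.8 FPKM in shNT against 11.4 FPKM in shRON. TNFRSF10A stood at 3.31 and 3.99 FPKM, and the decoy receptor TNFRSF10C at 3.65 and 0.940 FPKM, passing the level limit through shNT only. These receptors are similar in sequence, so reads may have been split among them.

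In the central range the levels of the 2 libraries lay close. At a mean of 5 FPKM or more, the median FPKM ratio was 1.02 (quartiles 0.861 and 1.19, 104 genes), equal to the 1.02 over all 8410 such genes, and the summed level of all 139 genes was 6176 FPKM in shNT against 5867 FPKM in shRON. Its most abundant genes encode ribosomal proteins. RPL30 stood at 1455 and 1436 FPKM, RPS20 at 757 and 697 FPKM, and RPL7 at 1194 and 898 FPKM. Ribosomal protein genes have many processed copies elsewhere in the genome, so their values are uncertain where reads could be placed on either.

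Among the highest ratios of the central range at a mean of 5 FPKM or more were 2 genes of the lipid and steroid list, RDH10 and DECR1. RDH10, which makes retinaldehyde from retinol, stood at 6.36 FPKM in shNT against 15.4 FPKM in shRON. CEBPD, a transcription factor induced by inflammatory signals, stood at 17.8 and 32.1 FPKM. DECR1, a mitochondrial enzyme needed to oxidise polyunsaturated fatty acids, stood at 48.0 and 83.7 FPKM. After them came SDCBP, the adaptor protein syntenin (35.2 and 57.0 FPKM), ASPH, a hydroxylase of the endoplasmic reticulum (21.8 and 34.9 FPKM), and MATN2, a matrix protein (3.89 and 6.61 FPKM).

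The lowest at a mean of 5 FPKM or more was SDC2, the heparan sulfate proteoglycan syndecan 2. It stood at 14.3 FPKM in shNT against 4.45 FPKM in shRON, an FPKM ratio of 0.312 (0.267 to 0.362). SDR16C5, a retinol dehydrogenase, stood at 9.94 and 5.46 FPKM, in the opposite direction from RDH10. JPH1, a junctophilin that ties the plasma membrane to the endoplasmic reticulum, stood at 8.58 and 4.70 FPKM. OTUD6B, a deubiquitinase, stood at 14.0 and 7.98 FPKM, and CCNE2, the cyclin E2 that drives entry into S phase, at 14.4 and 8.76 FPKM. PGCP, a secreted carboxypeptidase, stood at 10.1 and 5.91 FPKM. Among the genes of the central range named here for their ratio, MATN2, ASPH, SDR16C5, JPH1, OTUD6B, PGCP and CCNE2 were within 1.5-fold when the pseudocount was 5 FPKM. With the most abundant transcript only, ASPH (0.42) and MATN2 (0.45) were too, as was MATN2 (0.54) with the running median at the same level subtracted.

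The distal long-arm genes were higher at all levels of expression. Their median was 0.52 in the lowest level group (42 genes), 0.54 in the middle one (45 genes) and 0.50 in the highest (72 genes), where all genes had 0.09, 0.07 and -0.03. Genes on the plus strand (65) had a median of 0.51 and those on the minus strand (82) of 0.54. Genes with shorter transcripts had 0.42 (81 genes) and those with longer ones 0.55 (78 genes), where all genes had -0.01 and 0.08. Coding genes had 0.52 (144) and noncoding genes 0.40 (15), where all genes had 0.05 and -0.04. Of 104 transcripts from 51 genes with several, 93 had ratios above 0, where 64 of 119 in the central range did. These transcripts are parts of the same gene values.

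As plain FPKM ratios, the distal long-arm genes with a mean of 5 FPKM or more had a median of 1.45 (quartiles 1.25 and 1.71, 117 genes). The summed level of all 159 genes was 6265 FPKM in shNT against 8531 FPKM in shRON, which is 1.57% and 2.23% of all FPKM. The SD of the log2 ratio was 0.39 there and 0.53 over all genes. With starts from 140 Mb on, where genes are dense, the median was 0.52 (87 genes), and between 100 and 140 Mb it was 0.51 (72 genes).

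Its most abundant genes showed moderate ratios. RPL8, a ribosomal protein, stood at 1315 FPKM in shNT against 1759 FPKM in shRON. PABPC1, which binds the poly(A) tail and promotes translation, stood at 339 and 459 FPKM. YWHAZ, a 14-3-3 adaptor protein, stood at 303 and 423 FPKM. These 3 genes had log2 ratios of 0.42, 0.43 and 0.48, close to the median of the range.

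Of the 6 highest ratios at a mean of 5 FPKM or more, 4 belong to genes in the stretch from EXT1 to TRIB1. FBXO32, the ubiquitin ligase subunit atrogin-1 (hg19 chromosome 8, 124515358 to 124553446, minus strand), stood at 78.8 FPKM in shNT against 185 FPKM in shRON, an FPKM ratio of 2.35 (2.22 to 2.48). DEPDC6, which encodes the mTOR-binding inhibitor DEPTOR, stood at 12.4 and 31.8 FPKM. EXT1, a glycosyltransferase that extends heparan sulfate chains, had 6.0 and 16.3 FPKM. TRIB1, a pseudokinase that steers substrates to a ubiquitin ligase, stood at 3.74 and 10.2 FPKM. The other 2 of the highest 6 were C8orf73 (2.82 and 8.85 FPKM) and ADCK5, a member of a mitochondrial kinase-like family (4.03 and 9.89 FPKM).

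Few distal long-arm genes lay at or below equality. The lowest at a mean of 5 FPKM or more was COX6C, with a ratio of -0.44 and an FPKM ratio of 0.738 (0.700 to 0.777). ATAD2, a chromatin ATPase linked to estrogen receptor and E2F targets, stood at 22.2 FPKM in shNT against 19.8 FPKM in shRON. NFKBIL2, a replication fork repair protein now called TONSL, stood at 8.17 and 8.04 FPKM. PYCRL, a proline synthesis enzyme, SLC39A4, a zinc importer, and LRRC24 had ratios of 0.00, 0.01 and 0.03.

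Genes cited as targets of long-arm gain in breast cancer lie in both long-arm ranges. The 22 above 100 Mb had a median of 0.53, near the 0.51 of the range. Of these, 20 were higher in shRON (whole range, 94.3%), 9 of them at least 1.5-fold (whole range, 40.3%). The exceptions were ATAD2 and PVT1, a long noncoding RNA, at 4.74 and 4.65 FPKM. RAD21, a cohesin subunit, stood at 69.1 FPKM in shNT against 114 FPKM in shRON, an FPKM ratio of 1.66 (1.59 to 1.72). PTK2, focal adhesion kinase, stood at 23.7 and 37.7 FPKM, and SCRIB, a polarity scaffold, at 26.3 and 48.1 FPKM.

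The 7 genes of the same list in the central range had a median of -0.15. Of these, 0 were 1.5-fold higher (whole range, 9.35%) and 0 were 1.5-fold lower (whole range, 8.63%). COPS5, a subunit of the COP9 signalosome, stood at 84.1 FPKM in shNT against 63.6 FPKM in shRON. TPD52, a vesicle trafficking protein, stood at 38.5 and 32.8 FPKM, and MTDH, an RNA-binding protein of the endoplasmic reticulum, at 31.7 and 32.4 FPKM. LAPTM4B, a lysosomal membrane protein, had the highest ratio of the 7 (0.27).

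**Figure D3:**
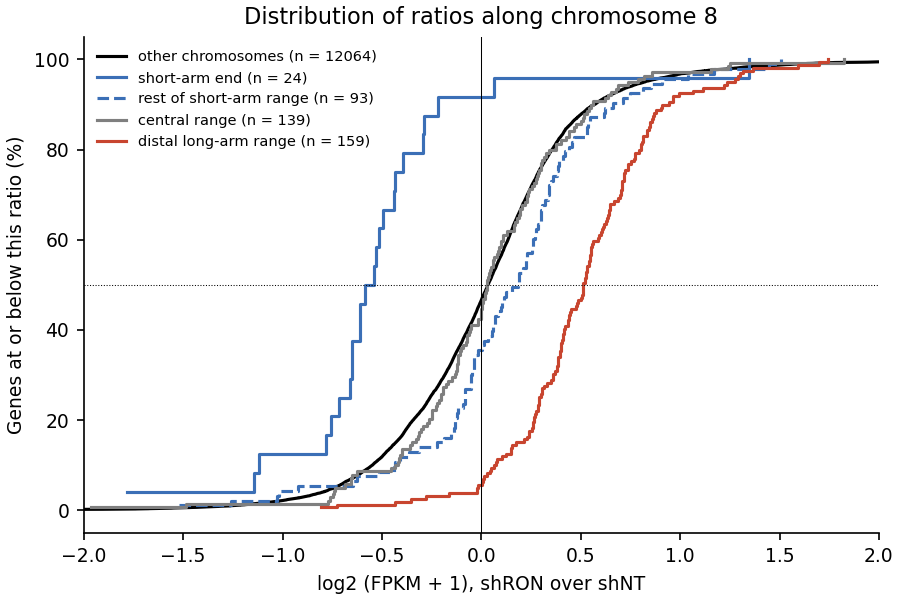
Lines give the share of genes (y axis, %) at or below each log2 ratio of FPKM + 1 in shRON over shNT (x axis) for sets of chromosome 8 genes by position and for the other chromosomes. The distal long-arm line lies to the right of the others, with a median of 0.51, the short-arm end line to the left, with -0.56, and the central line near that of the other chromosomes, with 0.03.

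The plot of the distribution of ratios sets the chromosome beside the others. The median over genes of other chromosomes was 0.03 (12064 genes), with 53.4% above 0. Over the 22 other chromosomes the median ran from -0.33 on chromosome 16 to 0.20 on chromosome 6, and the share 1.5-fold higher reached 17.4% on chromosome 4. Chromosome 16 was lower in shRON on both arms, with medians of -0.28 (350 genes) and -0.37 (267 genes). Chromosome 10 also differed along its length, with 0.16 (235 genes) below 80 Mb and -0.24 (249 genes) beyond it. A shift of a long run of genes was therefore not seen on chromosome 8 alone.

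Genes of a shared function are given here by position. The 7 translation genes above 100 Mb all lay above 0, as 94.3% of that range did. Their median of 0.42 was below the 0.51 of the range. Among them were the initiation factor subunits EIF3E (204 FPKM in shNT against 272 FPKM in shRON) and EIF3H (222 and 275 FPKM). The 7 translation genes of the central range had a median of -0.02. Of 20 measured genes for proteolysis and the vesicle proton pump, the 6 above 100 Mb had a median of 0.60. Of these 6, 3 were 1.5-fold higher (whole range, 40.3%). The 8 in the central range had a median of -0.24, with 2 that were 1.5-fold lower (whole range, 8.63%).

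For mitochondrial proteins, 21 of 24 listed genes were measured, with a median of 0.19. Of these, 4 were 1.5-fold higher (all genes, 9.95%) and 1 was 1.5-fold lower (all genes, 8.84%). The higher ones included PDP1, a phosphatase that activates pyruvate dehydrogenase (1.64 FPKM in shNT against 5.27 FPKM in shRON), and TOP1MT, the mitochondrial topoisomerase (6.88 and 11.8 FPKM). The respiratory chain genes CYC1 (116 and 141 FPKM) and NDUFB9 (199 and 244 FPKM) were higher, unlike COX6C, and all 3 lie above 100 Mb.

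Genes of replication, repair and mitosis had a median of -0.03 over 22 genes. Of these, 2 were 1.5-fold higher (POLB and RAD21) and 2 were 1.5-fold lower (CCNE2 and ESCO2), near the shares of all genes (9.95% and 8.84%). MCM4, a subunit of the replicative helicase, stood at 60.5 FPKM in shNT against 44.5 FPKM in shRON. POLB, the polymerase of base excision repair, stood at 15.9 and 24.9 FPKM. The 7 genes of the list above 100 Mb had a median of 0.25, below the 0.51 of their range.

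Of 12 listed zinc finger genes, all of which start above 100 Mb, 12 lay above 0 and 8 were at least 1.5-fold higher, with a median of 0.68. In the range as a whole 94.3% of genes lay above 0 and 40.3% were 1.5-fold higher. The list does not hold all zinc finger genes of the long arm, and KLF10 (0.41) and GLI4 (0.88), also above 100 Mb, were not in it. ZNF252 stood at 5.27 FPKM in shNT against 10.3 FPKM in shRON, and ZNF707 at 7.33 and 13.6 FPKM. Most of these genes arose by duplication and lie together near the long-arm end, so they are not separate instances. ZNF706 (start 102209266) lies apart from them. ZNF16 had the lowest ratio of the 12, at 0.41.

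Of 10 listed Ly6 family genes, small cell surface or secreted proteins near 144 Mb, 4 were measured and they differed in direction. PSCA stood at 0.512 FPKM in shNT against 3.57 FPKM in shRON, and it passed the level limit only through shRON and so had to differ. SLURP1 stood at 2.52 and 1.01 FPKM and LYNX1 at 2.98 and 1.41 FPKM, and these were the only distal long-arm genes at least 1.5-fold lower. LY6E, an interferon-induced surface protein, stood at 121 and 146 FPKM.

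Of 18 interferon and immune genes listed on the chromosome, 9 were measured and all 9 lay above 0 (all genes, 53.9%), with a median of 0.52 and 4 that were 1.5-fold higher (all genes, 9.95%). Those 4 were IDO1, CEBPD, GSDMD, which forms pores in pyroptosis (47.5 FPKM in shNT against 86.8 FPKM in shRON), and PARP10, a mono-ADP-ribosyltransferase (39.6 and 73.3 FPKM). GSDMD and PARP10 lie above 100 Mb, and IDO1 passed the level limit only through shRON and so had to differ. Of 18 lipid and steroid genes, 10 were measured, with a median of 0.09. Of these, 3 were 1.5-fold higher (all genes, 9.95%) and 1 was 1.5-fold lower (all genes, 8.84%). Of 5 carbonic anhydrases, 2 were measured and 1 was 1.5-fold lower (all genes, 8.84%). That gene, CA13 (1.11 FPKM in shNT against 0.269 FPKM in shRON), passed the level limit only through shNT and so had to differ.

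**Figure D4:**
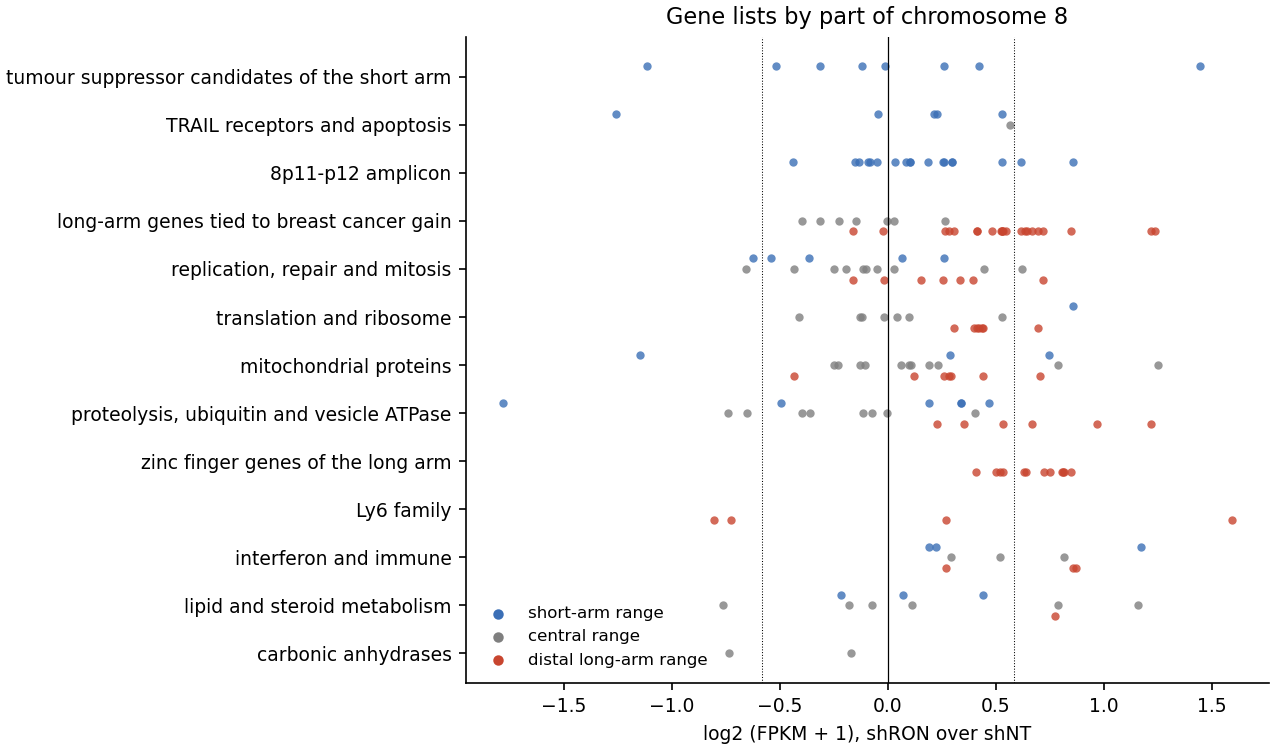
Each point is 1 measured chromosome 8 gene of a functional list, at its log2 ratio of FPKM + 1 in shRON over shNT (x axis), with 1 row per list and colours for the short-arm, central and distal long-arm ranges. Dotted lines mark 1.5-fold, and the 12 listed zinc finger genes lie between 0.41 and 0.85.

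The level limit removed 477 of the 892 genes, of which 298 had a listed value of 0 in both libraries. Of the 415 that passed, 387 reached 1 FPKM in both libraries, 17 only in shRON and 11 only in shNT. Just inside the limit were RPL23AP53 (1.03 FPKM in shNT against 0.657 FPKM in shRON), GPT (1.03 and 0.589 FPKM) and LOC100506342 (0.810 and 1.07 FPKM). Just outside were ZNF596 (0.986 and 0.573 FPKM), LOC100507204 (0.618 and 0.987 FPKM) and LOC100129104 (0.796 and 0.965 FPKM). Of the members, 386 were coding and 29 noncoding, and 55 overlapped another member.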

How the data were processed

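RNA of 1 shNT and 1 shRON library was measured. The authors deposited FPKM per RefSeq transcript in Cufflinks layout, per the file headers, with 37839 transcripts in each table. Their deposited coverage, a signal of reads over each transcript, was used to estimate fragments (11.9M in shNT and 11.5M in shRON). The build hg19 and DESeq are named in the submitters' processing notes, DESeq with no role. Aligner and Cufflinks version: not given in the sources used here.

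FPKM was summed over the transcripts of a gene. Genes with 1 FPKM or more in either library were kept, and log2 ratios used a pseudocount of 1 FPKM, which understates the change of weak genes. Genes at least 1.5-fold or 2-fold apart on that scale were counted, with no test, since each group has 1 library. Intervals on FPKM ratios are 95% Clopper-Pearson intervals on estimated fragments and cover counting error only. Strand came from GENCODE 44 for 389 of 415 members by name. The computation of ratios and medians was checked by planting known ratios in the shNT values. Python 3.11.15, pandas 2.3.3, numpy 2.4.6, scipy 1.17.1 and matplotlib 3.10.9 were used.

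In each range the genes named were the 6 highest and 6 lowest ratios at a mean of 5 FPKM or more, the 3 most abundant, examples from functional lists and the genes nearest the bounds, except 1 gene that is not reported here. MSRA, STC1, SGCZ, C8orf42, SLURP1, LYNX1 and the weaker genes below 16 Mb fall outside that rule and were chosen after their values were seen. The members and lists were chosen with earlier results of these data known, and a few list entries whose function did not match the list were removed after values were seen. Alternatives changed the pseudocount, level limit, transcript choice, scaling, bounds and position. A median was taken as moved from a change of 0.1 on the log2 scale, and a count from 1.5 times.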

Additional observations from a re-analysis of the deposited data

How the results depend on the processing

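With 1 library per group, spread between cultures is unknown, and depth limits the short-arm end most (median fragments per gene below 16 Mb, 156 in shNT and 99 in shRON). No paired analysis was possible because each group has 1 library. The median above 100 Mb kept its sign in all alternatives. The main medians below 40 Mb (0.055) and from 40 to 100 Mb (0.027) were smaller than the 0.1 tolerance, so a reversal could not be counted for them. Across alternatives the median above 100 Mb lay between 0.39 and 0.55, that of 40 to 100 Mb between -0.01 and 0.05, and that below 40 Mb between -0.02 and 0.24, so the sign of the last 2 is not settled. With a pseudocount of 5 FPKM, the median above 100 Mb was 0.39, with 35 genes 1.5-fold higher and 0 lower. The counts higher and lower were then 7 and 4 below 40 Mb, and 6 and 2 from 40 to 100 Mb. With a mean of 5 FPKM or more, the median below 40 Mb was 0.24 with 4 genes lower, the central counts were 7 and 7, 0 genes were lower above 100 Mb, and the difference of medians between the outer ranges was 0.27 in place of 0.46. With no level limit, the median was 0.40 above 100 Mb and 0.088 over the chromosome. With bounds at 35 and 95 Mb, 5 genes of the last range were lower. Chosen after seeing the data, leaving out genes below 16 Mb gave a median below 40 Mb of 0.19, 7 genes lower and a difference of 0.33. Leaving out genes from 140 Mb on, also chosen then, gave 28 higher and 0 lower above 100 Mb. Of the 43 genes taken for their ratio or level, 45 of 430 values moved by 0.1 or more, and 0 of the 28 past 1.5-fold changed sign. Near 0, signs did change: with the running median at the same level subtracted, RPL30 was at 0.14 and RPS20 at 0.039, and PYCRL, SLC39A4 and LRRC24 lay below 0 then and with the genome-wide median subtracted.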
